A study of Mus musculus with 8 samples.

Results

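The genes of the cytoplasmic translation initiation factors were examined in RNA-seq counts from mouse AML-12 cells, a hepatocyte line. Members were the rows whose symbol begins with Eif and a digit from 1 to 6, leaving out the eIF2 kinases named Eif2ak, which gave 51 of the 21983 gene symbols in the table. Of the 8 libraries, 4 came from cells overexpressing the long non-coding RNA gene Gm47544 and 4 from control cells titled pLKO.1, a lentiviral backbone, and labelled as wild type. Both groups were the same line and were grown alike in serum-supplemented medium. The titles of the overexpression libraries name no vector, and the labels do not say whether a group was 1 clone or whether its libraries were grown apart, so p-values rest on the spread among these libraries alone, and that spread may be technical. The series title concerns the ubiquitination of APOC3 by GM47544, and the comparison here is between Gm47544 overexpression and control cells. Gm47544 itself was not analysed here, so the labels could not be checked against the overexpressed gene.

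Initiation brings the initiator transfer RNA and the small ribosomal subunit to the start codon of a messenger RNA. eIF2 carries the initiator transfer RNA and is recharged with GTP by eIF2B, eIF3 is the large scaffold on the small subunit, eIF1 and eIF1A guide scanning, and eIF5 and eIF5B act at start codon recognition and subunit joining. The eIF4F complex joins the cap-binding protein eIF4E, the scaffold eIF4G and the helicase eIF4A, and the eIF4E-binding proteins block it when mTORC1 is inactive. Hepatocytes make and secrete plasma proteins in large amounts and so depend on this machinery.

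Library totals lay between 11016907 and 17338310 counts in overexpression libraries and between 12256376 and 18965662 in control libraries. Control library 3 stood apart from the other controls: it lay at 22.2 on the first principal component, against 50 to 60.7 for the other controls and -50.4 to -43.4 for the overexpression libraries, and results are given with and without it where it changes them. All 8 hepatocyte markers had counts in both groups, although Apoa1 reached only 59 overexpression and 43 control counts and Fgb 187 and 27. Their summed level was 1118 to 1165 CPM (read counts scaled by the effective library size) in overexpression libraries and 1739 to 2189 CPM in control libraries, but the markers did not move together: 3 rose (Alb by 3.58 on the log2 scale, Fgb by 2.89 and Apob by 0.76), 2 fell (Ttr and Serpina1a), and their median log2 fold change was 0.38. Ttr, at 279 CPM in overexpression and 1321 CPM in control libraries, carried the lower sum. The cholangiocyte and progenitor markers summed to 4475 to 5076 CPM in overexpression libraries and 2788 to 4139 CPM in control libraries, with Epcam at 0 and 1 counts. That sum was carried by Spp1 (2731 CPM in overexpression and 943 CPM in control libraries), which alone rose among the 4 tested, while Krt19 and Sox9 fell and the median was -0.28. The fall of Krt19 passed narrowly (log2 fold change -0.40, edgeR, adjusted p = 0.0465). Its groups overlapped, and the call held in 6 of 17 alternative analyses. The part of these markers in the results was not tested. Markers of the other cell types stayed low, but some of them differed between the groups. The 5 macrophage and leukocyte markers summed to 9.94 to 13.2 CPM in overexpression libraries and 26.7 to 32.6 CPM in control libraries, with Adgre1 and Clec4f at 0. Csf1r carried that sum, at 10.2 CPM in overexpression and 27.1 CPM in control libraries. It fell by 1.40 on the log2 scale without overlap, and Cd68, the other tested marker, was not called. The 5 endothelial markers reached at most 2.18 CPM in overexpression libraries and 0.536 CPM in control libraries. Cdh5, the only one tested, had 71 overexpression and 7 control counts and rose by 3.36 on the log2 scale. The 6 stellate cell and fibroblast markers summed to 9.86 to 17.4 CPM in overexpression libraries and 3.56 to 5.47 CPM in control libraries, with Col1a2 and Lrat at 0. Des carried that sum, at 11.3 CPM in overexpression and 3.95 CPM in control libraries. Des and Col1a1, the 2 tested, rose by 1.51 and 1.21 on the log2 scale without overlap.

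RefSeq promoter windows on GRCm38.p6, from 250 bases before to 50 bases after each annotated start, were at hand for 39 of the 51 members. A motif that growth-linked transcription factors of the MYC and MAX type bind, the E-box CACGTG, which reads the same on both strands, occurred in 10 of the 39 members (25.6%), against 11.8% of the 9095 tested genes with a window, counting a gene once if any of its listed windows held it. The 39 include Eif5a2, counted here for the E-box, the ETS core and CCAAT, and Eif2s3y, counted for TATAAA, which were not among the tested genes. Of the members with a window, the E-box was in 1 of the 5 higher in overexpression libraries and 7 of the 23 lower. Among all tested genes it was in 10.1% of those higher and 14.4% of those lower. The core of ETS factor sites, CCGGAAG on either strand, occurred in 15 members (38.5%), against 20.9% of tested genes. It was present in 0 of the 5 members with a window that were higher in overexpression libraries and in 11 of the 23 that were lower. Among all tested genes it was present in 16.2% of those higher and 25.0% of those lower. TATAAA occurred in 4 members (10.3%; tested genes 8.72%) and CCAAT in 13 (33.3%; tested genes 43.5%), each on either strand. Many transcripts of the translation machinery begin with a terminal oligopyrimidine tract, a C followed by a run of C and T bases. A C at the annotated start with at least 4 such bases after it was found for 2 members, Eif3f and Eif2s3x (5.13%; tested genes 3.05%). Only the annotated start base was examined, so a tract that begins a few bases away was not counted. A match describes these letters only. The windows below run from 150 bases before to 30 bases from the annotated start. Eif4g3 and Eif4g1 are shown as paralogs whose transcripts were called in opposite directions. Only 1 of those 2 calls stood after removal of the trend on gene length or on GC content, as given below. Eif2b2 is shown because it carries the ETS core, and Eif3f because it carries the E-box, TATAAA and the pyrimidine start together. Capitals mark the E-box, the ETS core, the TATA box and the pyrimidine run at the start; no marked motif overlaps another, CCAAT is left in lower case, and the Eif4g3 window, 1 of 2 listed, holds no marked motif. The windows are at chr4:137993305-137993484 (plus strand), chr16:20672577-20672756 (plus strand), chr12:85219331-85219510 (plus strand) and chr7:108934265-108934444 (plus strand), in the order listed.
Eif4g3: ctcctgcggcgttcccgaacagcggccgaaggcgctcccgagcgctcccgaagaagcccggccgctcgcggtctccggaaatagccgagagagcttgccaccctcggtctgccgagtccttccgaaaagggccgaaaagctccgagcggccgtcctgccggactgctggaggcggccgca
Eif4g1: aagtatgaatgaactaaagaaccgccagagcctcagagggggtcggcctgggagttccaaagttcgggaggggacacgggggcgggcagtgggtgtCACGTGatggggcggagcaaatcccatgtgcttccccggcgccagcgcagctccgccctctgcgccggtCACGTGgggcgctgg
Eif2b2: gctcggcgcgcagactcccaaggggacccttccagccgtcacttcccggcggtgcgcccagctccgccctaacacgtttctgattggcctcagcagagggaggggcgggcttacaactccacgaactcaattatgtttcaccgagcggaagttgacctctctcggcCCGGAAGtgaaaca
Eif3f: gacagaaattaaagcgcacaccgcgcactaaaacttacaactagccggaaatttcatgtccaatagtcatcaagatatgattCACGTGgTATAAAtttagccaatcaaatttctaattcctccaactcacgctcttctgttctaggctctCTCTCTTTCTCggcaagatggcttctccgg

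Initiation factor transcripts were mostly lower in overexpression libraries, and a smaller number rose. Of 47 members that passed the count filter, 29 fell and 7 rose by the quasi-likelihood test of edgeR, with p adjusted by Benjamini-Hochberg over all 11520 tested genes and 0.05 as the threshold. The share that fell was 61.7%, against 32.1% of all tested genes, and the share that rose was 14.9%, against 32.3%. Calls in either direction covered 76.6% of members and 64.4% of all tested genes. The overexpression and control values did not overlap for 30 of the 47 members, against 56.0% of all tested genes. The median log2 fold change was -0.45 for the members and 0.00041 for all tested genes. Members took 1.08 to 1.09% of all counts in the overexpression libraries and 1.22 to 1.26% in the control libraries, a share that does not depend on the scaling. In bulk RNA, fewer transcripts per cell and fewer cells making them cannot be told apart. Scaling by library totals alone moved the median of all genes up by 0.128 on the log2 scale and left 25 members lower (26.6% of all tested genes) and 8 higher (37.4%).

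**Figure D1:**
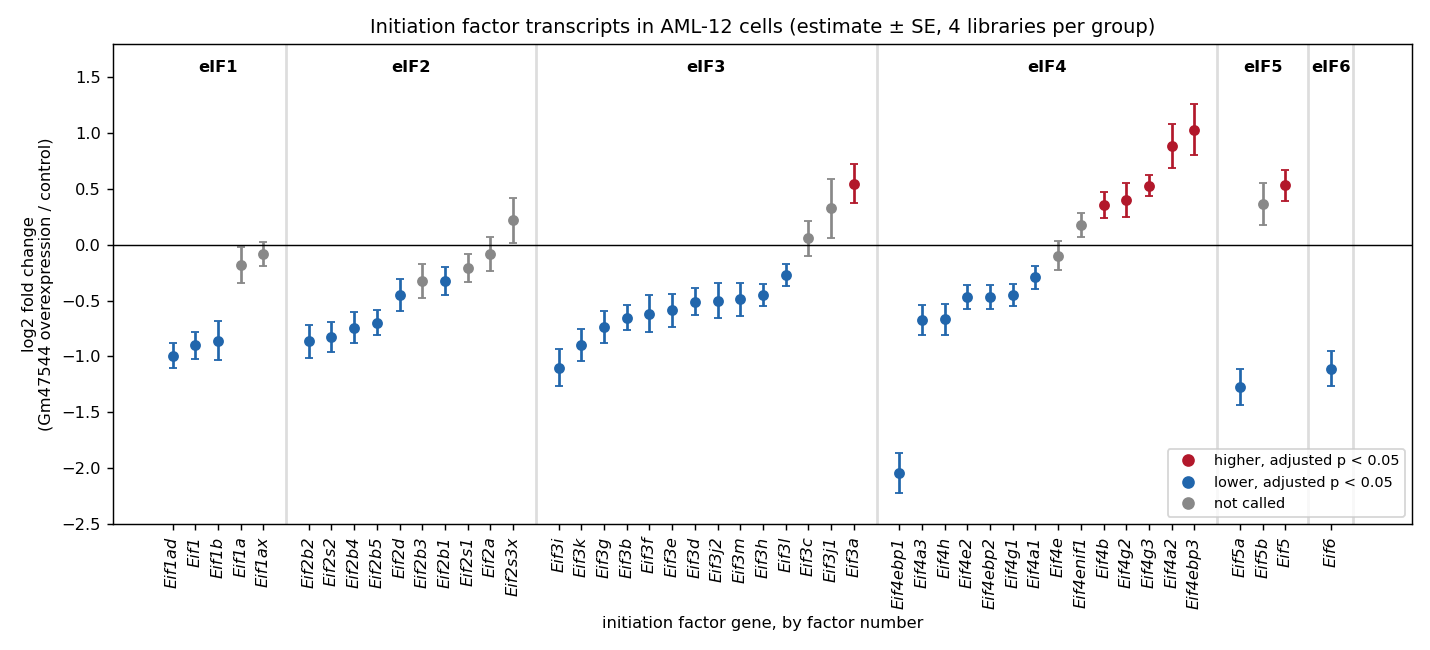
Log2 fold change (overexpression over control, y axis) of the 47 tested initiation factor genes, ordered within each factor number; points are estimates with their SE from 4 libraries per group. Blue points (29 genes, down to -2.04 for Eif4ebp1) are lower, red points (7 genes, up to 1.03 for Eif4ebp3) are higher and grey points (11 genes) did not pass.

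Longer transcripts tended to be higher in overexpression libraries, for members as for all genes. Spearman's correlation between exon length and log2 fold change was 0.535 across the 47 members and 0.411 across 11491 tested genes with a length. Genes are not independent replicates, and all points share the same 8 libraries. GC content also went with the fold change (Spearman's correlation -0.441 for members and -0.336 for all), and its relation to length was not computed. The 7 members that rose had a median exon length of 6820 bases and the 29 that fell 2702 bases. After removal of the length trend from each library, 25 members were lower (31.1% of all tested genes) and 4 higher (29.5%), and the median of the members was -0.27. Eif3a, Eif4g2 and Eif4g3 were no longer called higher, Eif1b, Eif2b1, Eif3h, Eif3j2, Eif3l and Eif3m no longer lower, and Eif2b3 and Eif4e were added to the lower ones. Whether this trend comes from the libraries or from the cells was not tested.

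**Figure D2:**
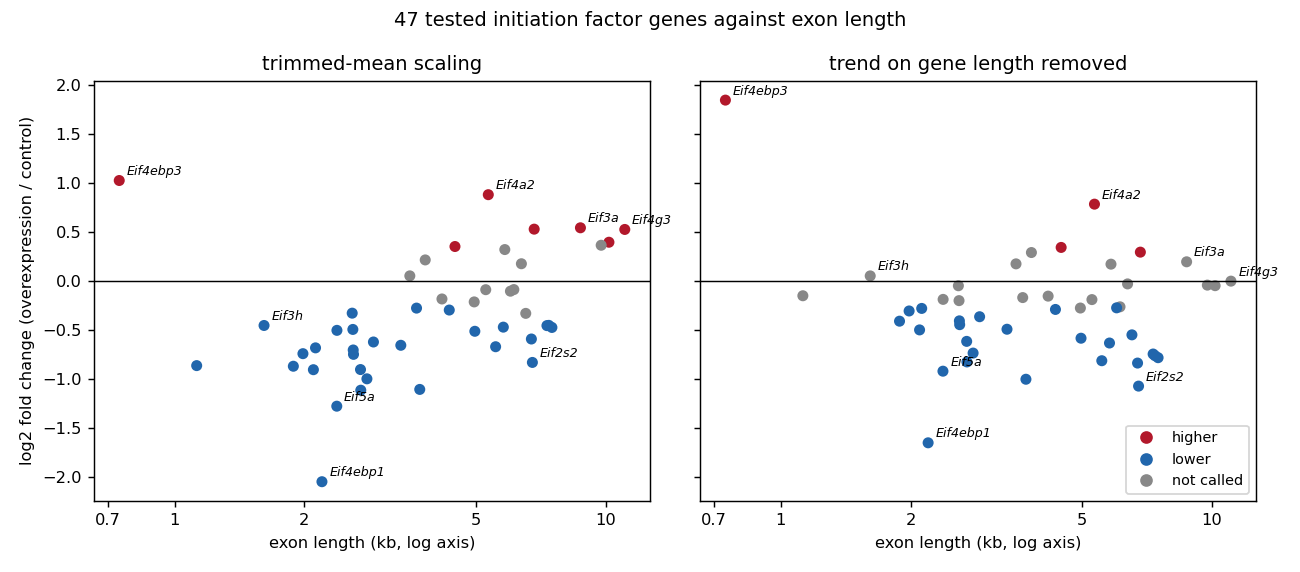
Log2 fold change (y axis) against exon length in kilobases (log x axis) for the 47 tested members, on the left with trimmed-mean scaling and on the right after removal of the length trend; red is higher, blue lower and grey not called. Eif4ebp1 is the lowest point in both panels, and the long genes Eif3a and Eif4g3 move from 0.55 and 0.53 on the left to 0.20 and 0.0036 on the right.

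Among the factors of scanning, eIF1 transcripts fell and those of eIF1A gave no call. Eif1, which keeps scanning ribosomes from starting at a wrong codon, is on chromosome 11 (100319885 to 100322096, plus strand; GENCODE M21 on GRCm38, as for all positions below). It measured 264, 262, 262 and 261 CPM in overexpression libraries 1 to 4, against 543, 484, 382 and 548 CPM in control libraries 1 to 4. The overexpression libraries lay within a few CPM of each other and below every control, of which library 3 was the lowest. The log2 fold change was -0.90 (SE 0.12, edgeR, adjusted p = 5.12e-05), and since 3 annotated pseudogenes carry its name, some reads may be shared with copies. Eif1ad, whose protein holds a domain like that of eIF1A (chromosome 19, 5366741 to 5371526, plus strand), had 57.4, 55.0, 60.9 and 52.2 CPM in overexpression libraries and 117, 113, 95.2 and 124 CPM in controls. These groups did not overlap either, and the log2 fold change was -0.99 (SE 0.11, edgeR, adjusted p = 1.44e-05). Of its 2792 exon bases, 428 lie opposite Banf1, which had 6632 overexpression and 21221 control counts (log2 fold change -1.62), and since no source used here gives the strand setting of the counting, the Eif1ad value is uncertain. Eif1b, the close relative of Eif1, fell at far lower counts, with 427 overexpression and 839 control counts over 4 libraries each and a log2 fold change of -0.86, which was -0.15 after removal of the length trend (edgeR, adjusted p = 0.00105 and 0.383). The genes of eIF1A, Eif1a and Eif1ax, had log2 fold changes of -0.18 (SE 0.16) and -0.084 (SE 0.11) and overlapped between the groups.

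Genes of eIF2B, the exchange factor that recharges eIF2 with GTP, fell for 4 of 5 subunits, and 1 of 3 tested genes of the eIF2 trimer fell, the beta subunit; 32.1% of all tested genes fell. After removal of the trend on GC content, 9 of the 10 tested genes named for eIF2 (Eif2a and Eif2d included) were lower (35.6% of all tested genes), against 6 otherwise. Eif2b2, the beta subunit (chromosome 12, 85219481 to 85226628, plus strand), had 42.1, 43.7, 38.5 and 39.8 CPM in overexpression libraries and 83.4, 72.8, 54.7 and 88.3 CPM in controls. Every overexpression library was below every control, and the log2 fold change was -0.86 (SE 0.14, edgeR, adjusted p = 0.000228). Eif2b4 and Eif2b5, the delta and the catalytic epsilon subunits, had log2 fold changes of -0.74 (SE 0.14) and -0.70 (SE 0.11). Eif2b1, the alpha subunit, had -0.32 (SE 0.13, edgeR, adjusted p = 0.0408), a call lost in 8 of 17 alternatives. Eif2b3, the gamma subunit, did not pass with -0.33 (SE 0.15, edgeR, adjusted p = 0.0769), and control library 4 (13.1 CPM) lay below all overexpression libraries. Summed over the 5 subunits, eIF2B transcripts measured 190 to 196 CPM in overexpression libraries and 262 to 324 CPM in controls.

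In the trimer, Eif2s2 encodes the beta subunit (chromosome 2, 154871410 to 154892935, minus strand) and measured 85.4, 97.0, 84.9 and 80.6 CPM in overexpression libraries, against 167, 171, 160 and 118 CPM in controls. The groups did not overlap, control library 4 being the nearest, and the log2 fold change of -0.83 (SE 0.13, edgeR, adjusted p = 0.000152) became -1.07 after removal of the length trend. Eif2s1, the alpha subunit that the stress kinases phosphorylate, had 108 ± 8.09 CPM in overexpression libraries and 125 ± 18.0 CPM in controls (SD, n = 4 each), a log2 fold change of -0.21 (SE 0.12) that did not pass, but was -0.64 and called with the GC trend removed (edgeR, adjusted p = 0.000111). Eif2s3x, the X-linked gamma subunit, had 38.3 ± 3.51 CPM in overexpression libraries and 32.8 ± 11.4 CPM in controls (SD, n = 4 each) and a log2 fold change of 0.22 (SE 0.20). Without control library 3, which was at 48.3 CPM, that value was 0.44 and passed (edgeR, adjusted p = 0.00443). Its Y-linked copy Eif2s3y had 0 counts in all 8 libraries, which allows a level of up to 0.0548 CPM in the overexpression group and 0.0509 CPM in the control group (3 counts over a group, counting error only). Eif2d, which can bring initiator transfer RNA without eIF2, fell by 0.45 on the log2 scale (SE 0.14), and Eif2a, another such factor, had a log2 fold change of -0.082 (SE 0.15). The Eif2d call held in all 17 alternatives, but its groups overlapped, control library 3 (57.2 CPM) lying among the overexpression libraries.

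**Figure D3:**
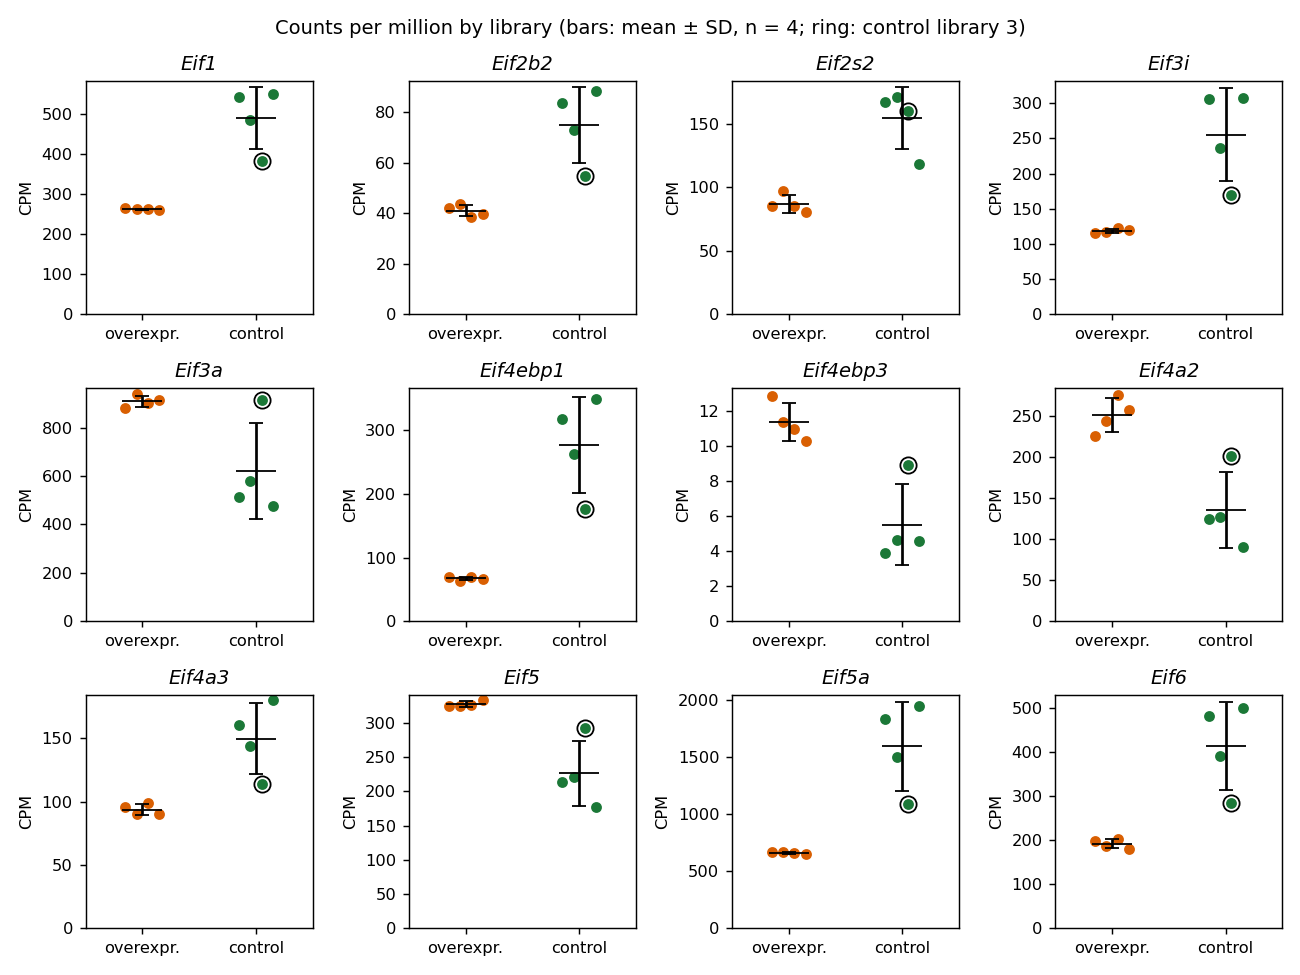
CPM (y axis, from 0) in each of the 4 overexpression libraries (orange) and 4 control libraries (green) for 12 initiation factor genes, with mean ± SD as bars; the ring marks control library 3. The overexpression libraries cluster tightly, for example 648 to 667 CPM for Eif5a, while the controls spread from 1088 to 1950 CPM, library 3 being the control nearest to the overexpression group for most of these genes.

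The subunits of eIF3, the scaffold that holds the small ribosomal subunit, fell for 11 of 14 genes, against 32.1% of all tested genes, and the largest subunit rose. After removal of the length trend 7 were lower, against 31.1% of all tested genes, and none was called higher by edgeR. Eif3i, a WD-repeat subunit (chromosome 4, 129591960 to 129600648, minus strand), had 116, 117, 123 and 120 CPM in overexpression libraries and 307, 237, 170 and 308 CPM in controls. The lowest control was library 3, still above all overexpression libraries, and the log2 fold change was -1.10 (SE 0.17, edgeR, adjusted p = 0.000105). Eif3k, a small subunit at the edge of the complex (chromosome 7, 28971372 to 28981864, minus strand), measured 133, 124, 126 and 126 CPM in overexpression libraries, against 274, 226, 169 and 279 CPM in controls, again without overlap. Its log2 fold change was -0.90 (SE 0.15, edgeR, adjusted p = 0.00019). The further subunit genes Eif3g, Eif3b, Eif3f, Eif3e and Eif3d had log2 fold changes of -0.74, -0.65, -0.62, -0.59 and -0.51, and each of these calls held in all 17 alternatives. For Eif3f the groups overlapped, since overexpression library 3 (424 CPM) lay above control library 3 (403 CPM). Of the 4968 exon bases of Eif3d, 2151 lie opposite the antisense gene Gm17638, which was not analysed here, so the Eif3d value is uncertain in the same way as that of Eif1ad. Eif3m, Eif3h and Eif3l, with -0.49, -0.45 and -0.27, lost theirs after removal of the length trend (edgeR, adjusted p = 0.235, 0.677 and 0.134), under which Eif3h was at 0.057. The Eif3l call was lost in 7 of 17 alternatives. For Eif3m the groups overlapped, with control library 4 at 114 CPM and overexpression library 3 at 115 CPM.

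Eif3a, the largest subunit, around which others assemble (chromosome 19, 60761117 to 60790658, minus strand), had 881, 940, 903 and 913 CPM in overexpression libraries and 514, 582, 913 and 478 CPM in controls. Control library 3 lay among the overexpression libraries and the other 3 controls well below them. The log2 fold change was 0.55 (SE 0.17, edgeR, adjusted p = 0.0145), and it was 0.76 without control library 3 and 0.20 after removal of the length trend (edgeR, adjusted p = 2.31e-07 and 0.177). Without control library 1 it was 0.46 and did not pass (edgeR, adjusted p = 0.0541). Eif3c, another large subunit, had a log2 fold change of 0.058 (SE 0.15), with control library 3 at 543 CPM and the other controls at 321 to 349 CPM, and was called at 0.24 without that library (edgeR, adjusted p = 0.00745). The loosely bound subunit eIF3j is encoded by Eif3j1 and by Eif3j2, a gene on chromosome 18 without an intron in the annotation. Eif3j2 took most of their reads, 1844 overexpression and 2854 control counts, against 209 and 178 for Eif3j1. Eif3j2 fell by 0.50 (SE 0.16) and Eif3j1 had a log2 fold change of 0.33 (SE 0.27), and for both genes the groups overlapped. Reads may be shared between such similar copies, and 1107 of the 5830 exon bases of Eif3j1 lie opposite Spg11, so both values are uncertain.

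Per kilobase of exon, the levels of the eIF3 genes ranged widely within each group. Eif3h was the highest at 245 ± 9.38 CPM per kilobase in overexpression libraries and 334 ± 10.4 in controls, followed by Eif3f at 136 ± 6.96 and 209 ± 55.7 (SD, n = 4 each). Eif3c and Eif3a came next in overexpression libraries, at 115 ± 3.69 and 104 ± 2.81 CPM per kilobase, while in controls Eif3b came next at 147 ± 17.1 (SD, n = 4). Among controls the neighbours Eif3c (110 ± 29.7), Eif3l (106 ± 5.44) and Eif3k (87.9 ± 18.9) did not differ beyond their spread. Leaving out the j genes, the lowest were Eif3e at 32.0 ± 2.28 and Eif3i at 32.1 ± 0.795 CPM per kilobase in overexpression libraries, which were alike within their spread, and Eif3e at 48.0 ± 10.8 in controls. Lengths were those of all annotated exons of a gene, so levels of genes with long alternative exons are understated.

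**Figure D4:**
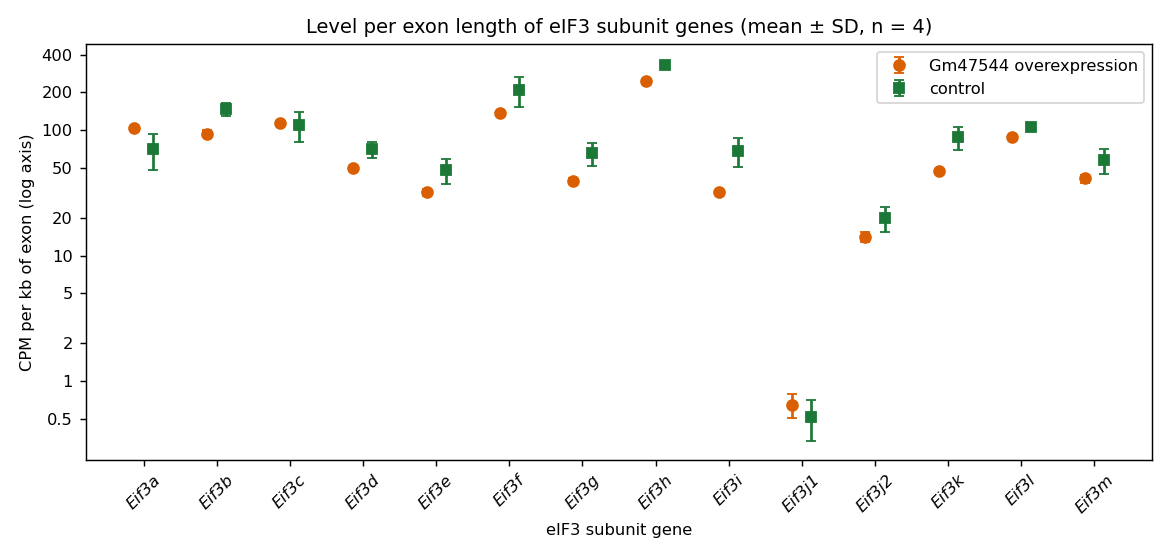
Level per exon length (CPM per kilobase, log y axis) of the 14 eIF3 subunit genes in overexpression (orange circles) and control (green squares) libraries, mean ± SD over 4 libraries each. Most subunits are lower in overexpression libraries, Eif3a is at 104 against 71.2, and Eif3j1 lies far below the rest at 0.65 against 0.521.

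The gene with the greatest change among the members was Eif4ebp1, which encodes a repressor that holds eIF4E away from eIF4G. Eif4ebp1 (chromosome 8, 27260329 to 27276674, plus strand) measured 70.1, 63.5, 69.1 and 65.8 CPM in overexpression libraries and 317, 263, 176 and 350 CPM in controls. All overexpression libraries were far below all controls, and control library 3 was the lowest control. The transcript was 4.12-fold lower, a log2 fold change of -2.04 (SE 0.18, edgeR, adjusted p = 2.07e-06), and stayed called in all 17 alternatives, with -1.65 after removal of the length trend. Its relative Eif4ebp2 also fell, with 151 ± 4.4 CPM in overexpression libraries and 209 ± 21.2 CPM in controls (SD, n = 4 each) and a log2 fold change of -0.47 (SE 0.11, edgeR, adjusted p = 0.00197). Eif4ebp3, the least abundant of these repressors (chromosome 18, 36664060 to 36665917, plus strand), had 12.9, 11.4, 11 and 10.3 CPM in overexpression libraries and 3.89, 4.61, 8.93 and 4.61 CPM in controls. The groups did not overlap, and the log2 fold change was 1.03 (SE 0.23, edgeR, adjusted p = 0.00167), or 1.85 after removal of the length trend. Of its 744 exon bases, 501 also belong to AC115631.1, a protein-coding gene on the same strand that reaches into the neighbouring gene Ankhd1 and was not analysed here. Ankhd1 had a log2 fold change of 1.05 (SE 0.18, edgeR, adjusted p = 0.000257), and transcripts running through could not be told apart from Eif4ebp3. Summed over the 3 genes, the repressors measured 223 to 240 CPM in overexpression libraries and 370 to 591 CPM in controls.

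Eif4e, the cap-binding protein they act on, did not pass the test, with 99.7 ± 3.17 CPM in overexpression libraries and 107 ± 18.9 CPM in controls (SD, n = 4 each), a log2 fold change of -0.099 (SE 0.13). Eif4e was called lower in 2 of 17 alternatives, at -0.51 with the GC trend removed and at -0.27 after removal of the length trend (edgeR, adjusted p = 3.41e-05 and 0.045). Eif4e2, a cap-binding relative that represses translation, fell by 0.47 on the log2 scale (SE 0.11, edgeR, adjusted p = 0.00181). Eif4e3 had 0 overexpression counts and 1 control count, and the germline form Eif4e1b had 0 counts in all 8 libraries. Eif4enif1, which carries eIF4E into the nucleus, had a log2 fold change of 0.18 (SE 0.11) and did not pass.

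The eIF4A helicase genes changed in opposite directions. Eif4a2 (chromosome 16, 23107444 to 23114136, plus strand) measured 225, 244, 274 and 257 CPM in overexpression libraries and 124, 127, 200 and 90.4 CPM in controls. No control reached the overexpression range, library 3 being the nearest, and the log2 fold change was 0.89 (SE 0.19, edgeR, adjusted p = 0.00147; 0.79 after removal of the length trend). Eif4a1, the other eIF4A gene, had 110 ± 1.70 CPM in overexpression libraries and 135 ± 12.5 CPM in controls (SD, n = 4 each), a log2 fold change of -0.29 (SE 0.10, edgeR, adjusted p = 0.0254) whose call was lost in 7 of 17 alternatives. Eif4a3, the helicase of the exon junction complex rather than of initiation (chromosome 11, 119288363 to 119300089, minus strand), had 95.9, 90.3, 98.5 and 89.8 CPM in overexpression libraries and 161, 144, 114 and 180 CPM in controls. These groups did not overlap, and the log2 fold change was -0.68 (SE 0.13, edgeR, adjusted p = 0.00079). The helicase cofactors also split. Eif4b had 1129, 1129, 1190 and 1158 CPM in overexpression libraries and 786, 905, 1071 and 835 CPM in controls, a log2 fold change of 0.36 (SE 0.11, edgeR, adjusted p = 0.0151, and 0.0541 without control library 1). Eif4h fell by 0.67 (SE 0.14).

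The scaffold genes of the eIF4G family split as well. Eif4g1, the main scaffold, had 597 ± 36.0 CPM in overexpression libraries and 815 ± 40.5 CPM in controls (SD, n = 4 each), a log2 fold change of -0.45 (SE 0.10, edgeR, adjusted p = 0.00164). With the trend on GC content removed it was -0.20 and did not pass (edgeR, adjusted p = 0.0613). Its paralog Eif4g3 measured 130, 127, 128 and 123 CPM in overexpression libraries and 84.2, 87.5, 92.1 and 87.1 CPM in controls, where library 3 was close to the others. That gave a log2 fold change of 0.53 (SE 0.10, edgeR, adjusted p = 0.000382), but 0.0036 after removal of the length trend, Eif4g3 having the longest exons of all members (11063 bases). Eif4g2, which lacks the site for eIF4E and serves initiation without the cap, had 1003 ± 6.99 CPM in overexpression libraries and 760 ± 202 CPM in controls (SD, n = 4 each). Its log2 fold change was 0.40 (SE 0.15, edgeR, adjusted p = 0.0351), a call lost in 9 of 17 alternatives, and it was -0.043 after removal of the length trend and 0.57 without control library 3, which was at 1058 CPM.

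To compare paralogs without any scaling, the log2 ratio of their counts was taken within each library for 9 pairs with at least 10 counts of both genes over the 8 libraries. For 5 pairs the overexpression and control ratios did not overlap, which gave p = 0.0286, the smallest that the two-sided exact permutation test of 4 against 4 libraries allows, and 0.0514 after Benjamini-Hochberg adjustment over the 9 pairs, so no pair passed. Eif4ebp1 relative to Eif4ebp2 was at -1.16, -1.24, -1.14 and -1.16 in overexpression libraries and at 0.64, 0.31, -0.069 and 0.57 in controls, a difference of -1.54 (SE 0.16). Eif4ebp1 reads thus exceeded those of Eif4ebp2 in 3 of 4 controls and in 0 of 4 overexpression libraries. Eif4a1 relative to Eif4a2 was at -1.04, -1.16, -1.32 and -1.19 in overexpression libraries and at 0.089, 0.22, -0.50 and 0.39 in controls, a difference of -1.23 (SE 0.20). Eif4g1 relative to Eif4g3 averaged 2.23 ± 0.0681 in overexpression libraries and 3.22 ± 0.0791 in controls (SD, n = 4 each), a difference of -0.98 (SE 0.052), with control library 3 at 3.12, close to the other controls. Eif4g1 relative to Eif4g2 differed by -0.89 (SE 0.19), and Eif5a relative to Eif5a2 by -3.12 (SE 0.93), a value that moved to -2.47 with 2 counts added in place of 0.5. The separation of Eif5a to Eif5a2 was narrow, at 11.55 in overexpression library 3 and 11.63 in control library 3. It rested on 2 and 5 Eif5a2 counts in those libraries. Exon lengths differ within pairs, so the length trend enters these ratios. The ratios of Eif1 to Eif1b, Eif1a to Eif1ax, Eif4e to Eif4e2 and Eif3j1 to Eif3j2 overlapped between the groups, with differences of -0.049, -0.066, 0.38 and 0.83 (exact permutation p = 0.686, 0.657, 0.114 and 0.0571).

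**Figure D5:**
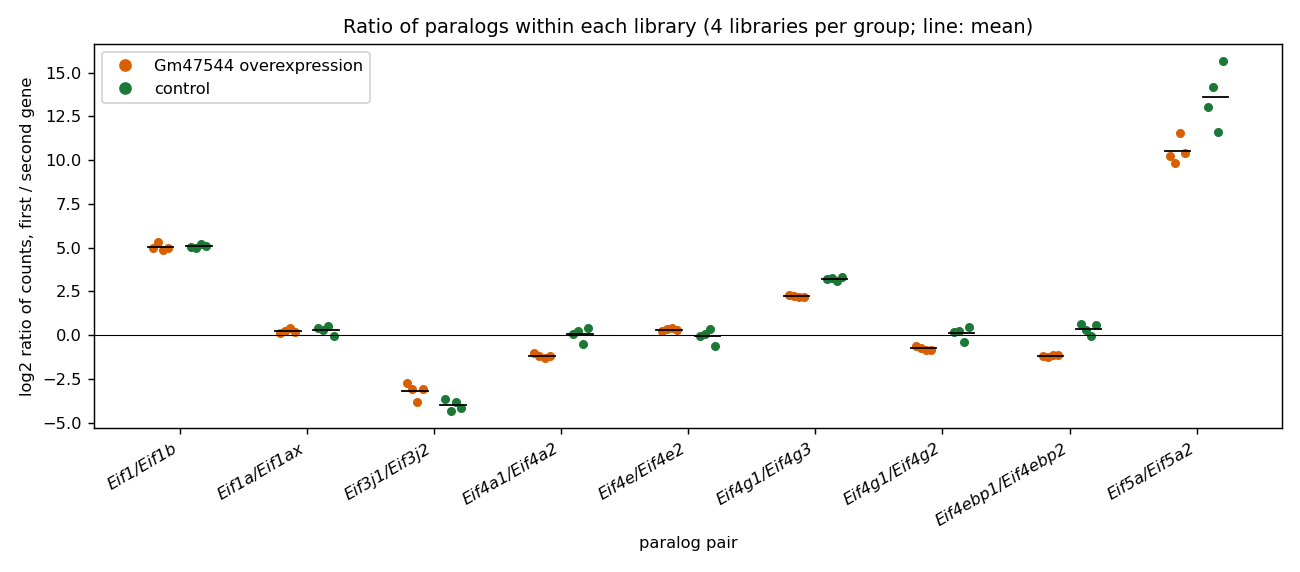
Log2 ratio of the counts of the first to the second gene (y axis) within each library for 9 paralog pairs; points are the 4 overexpression (orange) and 4 control (green) libraries and lines their means. The groups separate for Eif4ebp1/Eif4ebp2 (means -1.17 and 0.36), Eif4a1/Eif4a2 (-1.18 and 0.051), Eif4g1/Eif4g3 (2.23 and 3.22), Eif4g1/Eif4g2 (-0.75 and 0.13) and Eif5a/Eif5a2 (10.5 and 13.6). For Eif5a/Eif5a2 the nearest libraries are at 11.55 (overexpression) and 11.63 (control), at few Eif5a2 counts.

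Of the late factors, Eif5a and Eif6 fell and Eif5 rose. Eif5a, a factor that needs the hypusine modification and eases elongation and termination (chromosome 11, 69916714 to 69921958, minus strand), measured 667, 667, 655 and 648 CPM in overexpression libraries, against 1834, 1497, 1088 and 1950 CPM in controls. The groups were far apart, and the transcript was 2.42-fold lower (log2 fold change -1.27, SE 0.16, edgeR, adjusted p = 2.67e-05). Per kilobase of exon it was the highest of all members in both groups, at 277 ± 3.92 CPM in overexpression libraries and 670 ± 163 CPM in controls (SD, n = 4 each). Eif5a2, its rarely expressed paralog, had 27 overexpression and 8 control counts and did not pass the filter, and a fit of all genes with no filter gave it a log2 fold change of 1.74 (SE 0.70, edgeR, adjusted p = 0.0432). Eif6, which keeps the ribosomal subunits apart (chromosome 2, 155819832 to 155826925, minus strand), had 198, 187, 203 and 179 CPM in overexpression libraries and 482, 390, 283 and 501 CPM in controls. Again no library overlapped, and the log2 fold change was -1.11 (SE 0.16, edgeR, adjusted p = 7.44e-05). Eif5, which triggers GTP hydrolysis by eIF2 (chromosome 12, 111538016 to 111546752, plus strand), had 325, 326, 327 and 334 CPM in overexpression libraries and 214, 222, 292 and 177 CPM in controls. It rose without overlap, by a log2 fold change of 0.53 (SE 0.14, edgeR, adjusted p = 0.00435), and was 0.30 after removal of the length trend and 0.14 with the GC trend removed (edgeR, adjusted p = 0.0257 and 0.0452). Eif5b, which joins the ribosomal subunits, had a log2 fold change of 0.37 (SE 0.19) that did not pass, and 0.62 without control library 3 (edgeR, adjusted p = 1.97e-06). Of its 9753 exon bases, 1643 lie opposite Rev1, which had a log2 fold change of 0.47 (SE 0.18), so the Eif5b value is uncertain too.

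Control library 3 leaned towards the overexpression libraries for most called members. Of the 36 called members, it was nearest the overexpression side among the controls for 27. The same count was not made for all called genes, so it says nothing particular to the members. On the first principal component of all tested genes this library was also nearest, at 22.2 against 50 to 60.7 for the other controls. Without it, 30 members were lower (38.7% of all tested genes) and 11 higher (38.7%), Eif2s3x, Eif3c, Eif4enif1 and Eif5b joining those that rose. Without control library 1 the number of members that rose was 4, against 7 with all libraries, and fewer of all tested genes rose as well.

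Genes around the factors were read from lists of regulators and partners, whose counts stand against 32.3% of all tested genes that rose and 32.1% that fell. Of 9 genes of eIF2 kinase signalling, 5 rose and 4 fell (median log2 fold change 0.32), and the genes that rose were the 4 kinases and Impact, an inhibitor of the kinase Eif2ak4. The calls of Eif2ak1 and Impact held in only 7 and 10 of 17 alternatives. Eif2ak2, the sensor of double-stranded RNA, had a log2 fold change of 0.97 (SE 0.21) and Eif2ak4, the sensor of uncharged transfer RNA, 0.47 (SE 0.13). Only Eif2ak2 of the 4 kinases was still called after removal of the length trend. Of those that fell, Atf4, the transcription factor translated when eIF2 is phosphorylated, had 221 ± 11.2 CPM in overexpression libraries and 676 ± 117 CPM in controls (SD, n = 4 each; log2 fold change -1.61, SE 0.13, edgeR, adjusted p = 1.38e-06). Ppp1r15a, the stress-induced subunit of the eIF2 phosphatase, had a log2 fold change of -1.18 (SE 0.16). Of 13 tested genes of mTORC1 and MNK input, 3 rose and 3 fell (median 0.080), both shares below those of all tested genes. After removal of the length trend 8 of the 13 were lower, against 31.1% of all tested genes, and the median was -0.36. With the trend on GC content removed, 8 of the 13 were instead higher, against 35.8% of all tested genes. Mtor, Rptor, Tsc1 and Tsc2 were called lower under the first correction and higher under the second. Akt1s1, Rheb and Mknk2 were lower under both. Deptor, an inhibitor of mTOR, had 123 ± 5.18 CPM in overexpression libraries and 24.2 ± 6.88 CPM in controls (SD, n = 4 each; log2 fold change 2.34, SE 0.17), and Pdcd4, an inhibitor of eIF4A, had a log2 fold change of 1.40 (SE 0.16). Akt1s1, another inhibitor in mTORC1, and Rheb, its activator, fell by 1.12 and 0.52 on the log2 scale.

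Of 9 tested genes in the list around elongation, 8 fell (median log2 fold change -0.87), against 32.1% of all tested genes. They were 6 genes with Eef1 or Eef2 symbols (Eef1a1, Eef1b2, Eef1d, Eef1g, Eef1e1 and Eef2) and Dhps and Dohh, the enzymes that place hypusine on eIF5A, while Eef2k, the kinase of eEF2, had -0.20 (SE 0.14). After removal of the length trend 8 were again lower, against 31.1% of all tested genes. Eef1a1 was then at -0.047 and no longer called (edgeR, adjusted p = 0.735), while Eef2k was called at -0.51 (edgeR, adjusted p = 0.0129). Eef1b2 and Eef1g, parts of the complex that recharges the elongation factor eEF1A, had log2 fold changes of -1.28 (SE 0.12) and -1.11 (SE 0.13). Dhps and Dohh, which belong to the list but were picked out for naming after their values were seen, had -0.83 (SE 0.18) and -1.13 (SE 0.21). Of 14 cap, poly(A) and initiation cofactors, 4 rose and 4 fell (28.6% each way, median 0.015), near the shares of all tested genes. Pabpc4, a poly(A)-binding protein, fell by 1.18 and Mcts2, a retrocopy of a reinitiation factor gene, by 1.04, while Gigyf2, a partner of eIF4E2, and Cyfip1, a binder of eIF4E, rose by 0.71 and 0.62. After removal of the length trend, Mcts2, Gigyf2 and Cyfip1 were at -0.27, 0.064 and 0.079 and no longer called. Of 4 tested release factor genes only Pelo, a ribosome rescue factor, passed, at -0.42 (SE 0.16, edgeR, adjusted p = 0.0384), a call that held in 9 of 17 alternatives, with 0.12 after removal of the length trend. Of the 2 mitochondrial initiation factors, Mtif2 rose by 1.38 (SE 0.22) and Mtif3 did not pass.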

How the data were processed

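RNA-seq gene expression was measured in 8 libraries of AML-12 cells, 4 with Gm47544 overexpression and 4 controls; groups and replicate numbers came from the sample titles. The authors deposited a table of unnormalized whole-number read counts per gene symbol. FastQC, STAR and HTSeq and the build mm10 are named, per the submitters' processing notes, while the sources used here give no versions, annotation or strand setting. The members and gene lists were chosen with earlier results of these data known.

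All 51 members were found in GENCODE M21 (GRCm38, which is mm10 in other naming). The filterByExpr function, set to 10 counts, kept 11520 genes, which were scaled by trimmed-mean factors and tested with edgeR 4.0.16 in R 4.3.3 (two-sided quasi-likelihood test, group as the only term, Benjamini-Hochberg adjustment over all tested genes, called at 0.05). Effective library sizes were used for CPM, and the SE was taken as log2 fold change over root F. The common biological coefficient of variation was 0.15. On simulated data for overexpression against control on 11447 genes, 40% of the genes changed 1.5-fold were called and 84% of those changed 2-fold, and 6 of 165 calls were false. That simulation changed only a small part of the genes, with no length trend and no library set apart. Its rates therefore do not carry over to these data, where 64.4% of tested genes were called. Paralog ratios had 0.5 added to both counts and needed at least 10 counts per gene over the 8 libraries. Alternatives were other scalings and filters, DESeq2 1.42.0, limma-voom (limma 3.58.1), a replicate block, removal of the trend on gene length (lowess, span 0.3), leaving out each library and, added after seeing the data, removal of the trend on GC content. Values in every library are given, in each factor number, for up to 2 called members with the largest change in each direction, and a few more chosen after their values were seen; in each pathway list up to 2 called genes with the smallest p in each direction are named. Library pairs of a group differed by a chi-square per gene of 2.41 to 102, so none matched within counting noise. Figures were drawn with matplotlib 3.10.9.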

Additional observations from a re-analysis of the deposited data

Results flagged for a closer look

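Of 94 groups of 4 libraries (47 members in both groups), 5 held a library set apart from the other 3 by a gap above Dixon's 95% critical value; chance flags about 1 in 20 groups. Control library 3 was the highest control for Eif3c, at 543 CPM against 321 to 349 CPM in the others, and for Eif4ebp3, at 8.93 CPM against 3.89 to 4.61 CPM. Control library 4 was the lowest control for Eif2b3, at 13.1 CPM against 19.5 to 20.6 CPM, and for Eif2s1, at 98.4 CPM against 131 to 137 CPM. Overexpression library 3 was the highest of its group for Eif3f, at 424 CPM against 382 to 388 CPM.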

How the results depend on the processing

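Of the 36 called members, 24 kept their direction and their call in all 17 alternatives run; the other 12 lost it in at least 1, most often after length correction. The number of members higher was 7 with all libraries (32.3% of all tested genes), 4 without control library 1 and 11 without control library 3 (38.7%). These were the extremes over all libraries left out in turn. The number higher was 4 after length correction (29.5%) and 11 with limma-voom. The number lower was 29 (32.1%), and 26 to 32 when 1 library was left out. Calls among all tested genes moved too: fewer were higher without control library 1 and more with limma-voom. The 32 members lower came without control library 4, where fewer of all tested genes were lower than with all libraries. The median log2 fold change of the members was -0.45, and -0.32 with library totals alone and -0.27 after length correction. By factor number, after length correction eIF3 had 0 higher and 7 lower (1 and 11 otherwise) and eIF4 had 3 higher (5 otherwise). With limma-voom 1 eIF2, 2 eIF3 and 2 eIF5 genes were higher (0, 1 and 1 otherwise), and more of all tested genes rose. The eIF5 genes also had 2 higher with no filter or with the replicate block. With GC correction 5 eIF1 genes were lower (3 otherwise), against 35.6% of all tested genes (32.1% otherwise). Leaving out 1 library gave 0 to 1 higher eIF2 genes, 0 (control library 1) to 2 (control library 3) eIF3 genes, 3 (without control library 1) to 6 eIF4 genes and 1 to 2 eIF5 genes.

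In the lists, eIF2 kinase signalling had 2 higher after length correction and 3 to 5 on leaving out a library, 3 for overexpression library 1, 2 or 4 or control library 1, 2 or 4 (5 otherwise). The mTORC1 list had 5 higher with library totals alone or limma-voom, 8 with GC correction, 3 to 5 on leaving out a library, 5 for control library 3 (3 otherwise) and 8 lower after length correction (3 otherwise). The cofactor list had 7 higher with limma-voom, 3 to 7 on leaving out a library, 7 for control library 3, and 7 lower with GC correction (4 and 4 otherwise). The release factors had 0 lower with library totals alone or the length trend removed, 2 with GC correction and 0 to 1 on leaving out a library, 0 for overexpression library 2, 3 or 4 or control library 1 or 4 (1 otherwise). Among all tested genes, 37.4% were higher with library totals alone and 35.8% with GC correction (32.3% otherwise). The share higher was 38.7% without control library 3 and 29.5% after length correction. In the same order 26.6%, 35.6%, 38.7% and 31.1% were lower (32.1% otherwise). With limma-voom more were called in each direction, and fewer when any other library was left out. A list count that moved the same way need not be particular to that list. The sign turned with library totals alone for Eif1ax (0.042), Eif2a (0.035) and Eif4e (0.020), with GC correction for Eif2s3x (-0.097) and Eif3j1 (-0.038), after length correction for Eif3h (0.057), Eif4enif1 (-0.025), Eif4g2 (-0.043), Eif5b (-0.037) and Pelo (0.12), without control library 3 for Eif2a (-0.21 to 0.033 over the libraries left out), and without control library 1 or 4 for Eif3c (-0.030 to 0.24 over the libraries left out); the paralog differences of Eif1 to Eif1b and Eif1a to Eif1ax, neither of them called, reached 0.0076 with a library left out. The cause was not tested. Same-numbered libraries of both groups correlated at -0.119 to 0.0227 in their deviations, so the numbers were not taken to pair them. With the replicate block 26 members were lower and 8 higher, while fewer of all tested genes were called in each direction than without it. In pairs by number, the paralog differences had sign-flip adjusted p of at least 0.161 (exact test, with 0.125 the smallest unadjusted p that 4 pairs allow). Counts under about 10 per library, as for Eif5a2 and Eif4e3, limit any statement on those genes.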
